A study of Mus musculus with 6 samples.

Results

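Transcripts of the insulin-like growth factor (IGF) pathway were examined through 9 genes in tissue dissected as proximal incisor mesenchyme. These genes were the ligand *Igf1*, the receptors *Igf1r* and *Insr*, and the binding proteins *Igfbp2*, *Igfbp3*, *Igfbp4*, *Igfbp5*, *Igfbp6* and *Igfbp7*. They were taken by gene name from a table of 19270 genes, and all 9 were found. Bulk RNA-seq had been performed on the proximal region of the incisor from 3 control and 3 *Arid1b* mutant mice. All mice received tamoxifen at 1 month of age, and tissue was collected 4 days after induction. The mutants were *Gli1-CreER;Arid1b fl/fl*, in which tamoxifen activates the Cre recombinase in *Gli1*-expressing cells. *Arid1b* is thereby inactivated in these cells and their descendants. The sample labels give the control genotype as wild type, whereas the methods describe *Arid1b fl/fl* mice given the same tamoxifen. The CreER sequence of this line sits in the *Gli1* locus, so that by these genotypes mutants and controls differ at *Gli1* as well as at *Arid1b*.

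IGF1 is a secreted growth factor that binds the receptor tyrosine kinase IGF1R and, more weakly, the insulin receptor INSR. Both receptors signal through IRS adaptor proteins to the PI3K-AKT and ERK pathways and favor growth and survival of cells. IGF-binding proteins hold IGFs outside the cell, lengthen their lifetime and limit or deliver them to receptors, and proteases release the ligand by cutting them. In teeth, IGF ligands and receptors are present in both mesenchyme and epithelium.

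The ligand had the highest ratio of the 9 genes. *Igf1* had a mean normalized signal of 329 in mutants versus 161 in controls, a ratio of 2.05. Among the binding proteins, *Igfbp2* and *Igfbp6*, the least abundant of the family, were 1.83-fold and 1.59-fold higher in the mutants, and the abundant *Igfbp3* was 1.34-fold higher. *Igfbp7* was lower, with a ratio of 0.767. The receptors had ratios of 0.906 for *Igf1r* and 0.925 for *Insr*. These values are the authors' means over the 3 libraries of each group. Single libraries were analysed here only as summary statistics. The means therefore carry no SD, no test across mice was run, and whether any of these differences exceeds the spread between mice is not known.

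**Figure D1:**
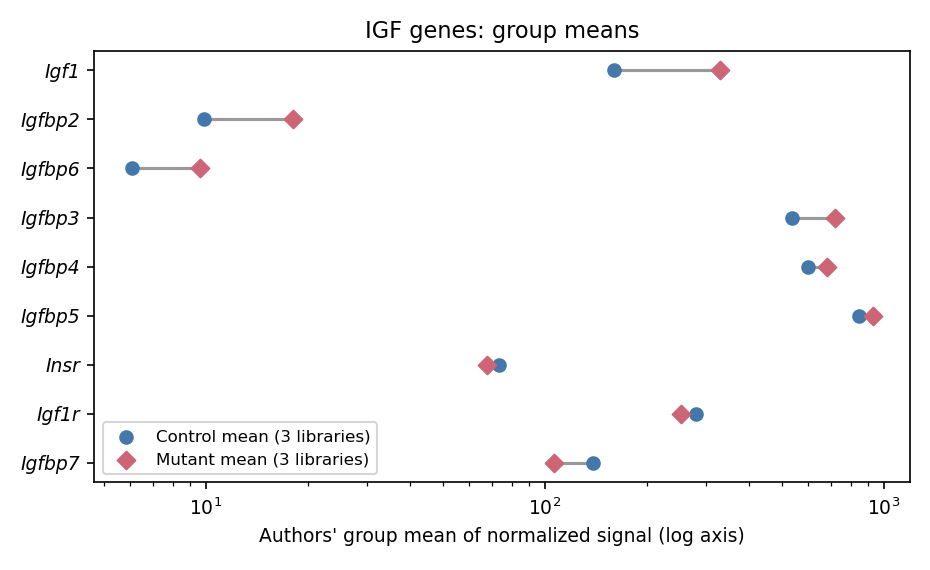
Authors' mean of normalized signal for each IGF gene (log axis), with circles for the 3 control and diamonds for the 3 mutant libraries and a line joining both means; no error bars are drawn because the spread between libraries is not known. The pair of *Igf1* (161 and 329) is the most widely separated, and those of *Igf1r*, *Insr*, *Igfbp4* and *Igfbp5* lie close together.

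The normalized signal was inferred to be reads scaled so that the upper quartile of each library lies between 44.57 and 44.58. From the lowest values, the libraries held an estimated 37123643 to 49594469 reads on these genes, which is approximate, since depth is not given and the distances of low means from the lowest mean were sums of whole reads, within 1e-06, for 26 of 62 distinct control values (41.9%) and 19 of 59 distinct mutant values (32.2%). *Arid1b* itself had a mean of 38.0 in mutants versus 97.6 in controls. The samples also differed in other ways. All 9 listed dental epithelium markers were higher in the mutants, all 5 erythroid markers were lower, *Gli1* had a mean of 46.1 against 106, and *Xist* one of 814 against 3368. The Y-linked transcripts *Ddx3y*, *Eif2s3y*, *Uty* and *Kdm5d* were at least 631-fold, 245-fold, 288-fold and 265-fold higher in the mutants, taking 3 reads per control library as the floor. In the controls, the means of these Y-linked transcripts lay under that floor (0.103). The mutant means held both the Y-linked transcripts and *Xist*, and how these divide over the 3 mutant libraries is not known. The sex of the mice is not given in the labels, and in these group means sex and genotype cannot be told apart. In whole tissue, fewer cells of a type and less RNA per cell cannot be told apart.

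Of the 9 IGF genes, 3 (*Igf1*, *Igfbp2* and *Igfbp6*) differed by over 1.5-fold, the fold threshold of the study's methods, and all 3 were higher in the mutants. Over all 19270 genes, 13.2% differed by over 1.5-fold in either direction and 7.37% were higher in the mutants by that much. Large ratios were more frequent among genes of low signal. Among 10311 genes whose mean over both groups was 10 or more, 3.06% differed by over 1.5-fold and 2.15% were higher in the mutants. *Igf1* and *Igfbp2* were in this set with 6 other IGF genes. Among 2057 genes with such a mean of 100 or more, 1.46% were over 1.5-fold higher in the mutants, and *Igf1* was the only one of 6 IGF genes there to be so. The median log2 ratio of mutant over control was 0.19 over the 9 genes, with 6 higher and 3 lower, and 0.002 over all genes. The genes were chosen with earlier results of these data known, and 9 genes are few, so these counts describe the family in these libraries.

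**Figure D2:**
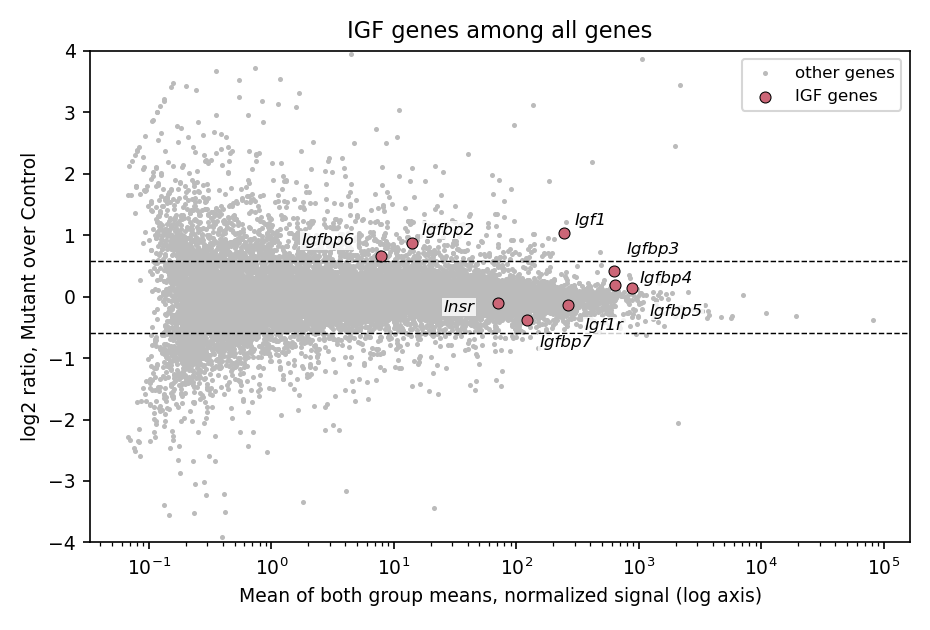
The log2 ratio of mutant over control against the mean of both groups (log axis) for the 9 IGF genes in red and for all other genes in grey, with dashed lines at 1.5-fold; 19 genes beyond 4 on the vertical axis are not shown. *Igf1*, at a log2 ratio of 1.04, lies above most genes at its level, whereas *Igfbp2* and *Igfbp6* lie where ratios scatter more widely.

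*Igf1* encodes the ligand. It lies on chromosome 10 of GRCm38 from 87858265 to 87937042 on the plus strand and has 8 annotated transcripts, which the gene-level values do not separate. Its log2 ratio was 1.04, a difference of 169 in normalized signal, and 4.75% of all genes, or 0.873% of those at 10 or more, had a larger change in either direction. Of the 2057 genes at 100 or more, 7 had a higher ratio than *Igf1*. They included *Enam*, *Amelx* and *Ambn*, which encode enamel matrix proteins, the keratin gene *Krt5*, *Clu*, which encodes a secreted chaperone, and *Calb1*, which encodes a calcium-binding protein. *Clu* and *Calb1* were named after their values were seen. The ratios of these 7 genes ranged from 2.32 for *Krt5* to 14.6 for *Enam*. *Igf1* ranked 1099 by signal in controls versus 354 in mutants among all genes. Its antisense neighbor *Igf1os* overlaps its first part and was at 0.354 in mutants versus 0.398 in controls. Whether reads were counted by strand is not given in the sources used here, so reads in the overlap could have been given to either gene.

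The second ligand of the pathway, *Igf2*, was described from a list of other pathway genes. Its mean was 386 in mutants versus 469 in controls, a ratio of 0.821. Per kilobase of exon, the signal of *Igf1* was 16.2 in controls versus 33.3 in mutants, and that of *Igf2* was 82.0 and 67.4. *Igf2* was thus the more abundant ligand transcript in both groups, and the level of *Igf1* relative to *Igf2* was 0.198 in controls versus 0.494 in mutants.

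The receptors differed less. *Igf1r* (chromosome 7, 67952827 to 68233668) had a mean of 253 in mutants versus 279 in controls, a log2 ratio of -0.14. *Insr* (chromosome 8, 3122061 to 3279617) had a mean of 67.8 in mutants versus 73.2 in controls, a log2 ratio of -0.11. Changes larger than that of *Igf1r* in either direction were present in 49.1% of all genes, and larger than that of *Insr* in 56.5%. Among the genes at 10 or more these shares were 29.8% and 38.8%. The level per kilobase of *Igf1r* relative to *Insr* was 3.12 in controls versus 3.06 in mutants. *Igf2r*, whose product takes IGF2 up for breakdown and does not act as a signaling kinase, had means of 80.9 in mutants versus 83.1 in controls.

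The binding proteins share a cysteine-rich amino-terminal domain that binds IGF. The coding stretch of 24 bases for its signature (glycine, cysteine, glycine, cysteine, cysteine, any 2 residues, cysteine) is shown to let the members be compared, read 5′ to 3′ from the GENCODE vM21 transcripts with cysteine codons in capitals.
Igfbp2, codons 67 to 74: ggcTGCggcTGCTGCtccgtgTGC
Igfbp3, codons 68 to 75: ggcTGCggcTGCTGCctgactTGC
Igfbp4, codons 52 to 59: ggcTGCggtTGTTGCgccactTGC
Igfbp5, codons 51 to 58: ggcTGTggcTGCTGCatgactTGC
The signature occurred in 4 of the 6 binding proteins and was not matched by these codons in *Igfbp6* or *Igfbp7*. Cysteine codons made up 6.07% to 7.87% of the longest coding sequence of the 6 binding proteins, compared with 3.21% in *Igf1r* and 3.43% in *Insr*. The signature did not sort the members by their ratios. Among its carriers, *Igfbp2* was 1.83-fold higher in the mutants and *Igfbp5* 1.10-fold, and of the other members *Igfbp6* was higher and *Igfbp7* lower.

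*Igfbp3*, *Igfbp4* and *Igfbp5* were the abundant binding proteins. IGFBP3 and IGFBP5 can carry IGFs in serum in a complex with the acid-labile subunit. IGFBP4 is known as an inhibitor of IGF action that the protease PAPPA cuts. *Igfbp3* (chromosome 11, 7206086 to 7213923) had a mean of 719 in mutants versus 538 in controls, a log2 ratio of 0.42. Of the 10311 genes at 10 or more, 368 had a higher ratio. *Igfbp4* (chromosome 11, 99041244 to 99054392) had means of 682 and 597, a log2 ratio of 0.19. *Igfbp5* (chromosome 1, 72857932 to 72874884) had the highest signal of the 9 genes in both groups, with means of 928 in mutants versus 847 in controls, and a log2 ratio of 0.13. A larger change in either direction was seen for 51.4% of all genes in comparison with *Igfbp5*, for 20.2% in comparison with *Igfbp3*, and for 6.93%, 10.9% and 22.2% in comparison with *Igfbp2*, *Igfbp6* and *Igfbp7*. Among the genes at 10 or more, where ratios scatter less, the shares were 32.5% for *Igfbp5*, 20.2% for *Igfbp4*, 5.89% for *Igfbp3*, 6.90% for *Igfbp7* and 1.26% for *Igfbp2*.

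*Igfbp2* and *Igfbp6* had low signals. IGFBP2 carries IGFs and also binds cell surfaces, and IGFBP6 prefers IGF2 over IGF1. *Igfbp6* is used in the study as a marker of the mesenchymal stem cells (MSCs) of the incisor. The paper reports fewer MSCs in the mutants, by staining and by single-cell RNA-seq. How the whole-tissue level of *Igfbp6* relates to the number of MSCs was not tested. *Igfbp2* (chromosome 1, 72824503 to 72852474) had a mean of 18.05 in mutants versus 9.86 in controls, a log2 ratio of 0.87. *Igfbp6* (chromosome 15, 102144362 to 102149511) had a mean of 9.60 in mutants versus 6.04 in controls, a log2 ratio of 0.67. With 5 added to both means, as a guard against ratios of small values, the log2 ratio of *Igfbp6* was 0.40 and no longer past 1.5-fold. Under the reading of the signal as reads, the control mean of *Igfbp6* equals about 227 to 243 reads. Its mutant mean equals about 365 to 501. These ranges come from the scaling of the libraries alone, and the reads of *Igfbp6* in single libraries are not known. *Igfbp2* and *Igfbp5* are neighbors on chromosome 1, on opposite strands with 5457 bases between them, and had ratios of 1.83 and 1.10.

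*Igfbp7*, which encodes a binding protein of low affinity for IGF that is abundant in vessel walls, was the member with the lowest ratio. Its mean was 107 in mutants versus 139 in controls (chromosome 5, 77349240 to 77408041), a log2 ratio of -0.38. Of the 10311 genes at 10 or more, 292 had a lower ratio. Its end overlaps *Polr2b* on the other strand, which had means of 103 in mutants versus 102 in controls. The 6 listed endothelial markers had a median log2 ratio of 0.03, with *Cdh5* at 94.4 in mutants versus 95.2 in controls, and the 5 perivascular markers had a median of -0.17, with 2 higher and 3 lower. Of these *Rgs5* was at 340.1 and 411, and *Acta2*, the marker with the highest ratio and named after its value was seen, at 88.9 and 63.4. The part of vessel cells in the ratio of *Igfbp7* was not tested.

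To place these 3 binding proteins in their genomic context, the 250 bases before the annotated start of each (for *Igfbp2*, the first of its starts) are given from RefSeq on GRCm38.p6, 5′ to 3′ in the direction of the gene. Capitals mark matches on either strand to the TATA box (TATAAA), the GC box (GGGCGG), the CCAAT box (CCAAT), the E-box motif (CACGTG) and the AP-1 motif (TGACTCA).
Igfbp2, chr1:72824230-72824479, plus strand: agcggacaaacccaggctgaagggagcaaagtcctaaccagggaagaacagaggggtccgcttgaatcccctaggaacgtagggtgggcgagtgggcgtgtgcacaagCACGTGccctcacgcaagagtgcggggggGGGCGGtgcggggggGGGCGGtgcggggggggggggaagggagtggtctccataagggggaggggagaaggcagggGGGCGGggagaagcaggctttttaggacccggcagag
Igfbp6, chr15:102143936-102144185, plus strand: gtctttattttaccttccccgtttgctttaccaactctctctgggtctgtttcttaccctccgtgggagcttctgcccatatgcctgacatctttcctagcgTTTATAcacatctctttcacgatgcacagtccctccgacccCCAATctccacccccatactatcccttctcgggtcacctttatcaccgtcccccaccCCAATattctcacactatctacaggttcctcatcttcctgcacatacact
Igfbp7, chr5:77408046-77408295, minus strand: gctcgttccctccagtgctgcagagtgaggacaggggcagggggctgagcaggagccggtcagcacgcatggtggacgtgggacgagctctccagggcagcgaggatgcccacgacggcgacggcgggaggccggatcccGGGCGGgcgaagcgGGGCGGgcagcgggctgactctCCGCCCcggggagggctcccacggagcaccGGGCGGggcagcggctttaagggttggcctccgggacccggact
The GC content was 67.2% for *Igfbp2*, 49.6% for *Igfbp6* and 74.0% for *Igfbp7*, with a median of 52.4% over 32851 promoters of the RefSeq table. GGGCGG occurred in the windows of *Igfbp2* and *Igfbp7*, and in 32.7% of all windows of this length. The window of *Igfbp6* held TATAAA and CCAAT, which occurred in 12.4% and 33.8% of all windows. CACGTG was in that of *Igfbp2* and in 6.02% of all windows, and TGACTCA, found in 4.46% of all windows, was in none of the 3. Matches are letters only and say nothing of binding.

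Levels of different genes were compared per kilobase of exon. In the controls, *Igfbp3* was the highest of the 9 genes at 172, followed by *Igfbp5* at 141, *Igfbp4* at 135 and *Igfbp7* at 115. *Igf1r* at 16.6 and *Igf1* at 16.2 came next, and *Igfbp6*, *Igfbp2* and *Insr* lay between 5.33 and 5.44. In the mutants *Igfbp3* was at 229.7, *Igfbp5* at 155, *Igfbp4* at 154 and *Igfbp7* at 88.1. *Igf1* at 33.3 was above *Igf1r* at 15.1, and *Igfbp2* at 9.77, *Igfbp6* at 8.64 and *Insr* at 4.93 were lowest. With no spread known, neighbors this close in the order, such as *Igfbp4* and *Igfbp5*, cannot be separated.

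The summed level of the 6 binding proteins per kilobase was 574 in controls versus 645 in mutants, a ratio of 1.12. *Igfbp3*, *Igfbp4* and *Igfbp5* together made up 78.1% of this sum in controls versus 83.5% in mutants. The share of *Igfbp3* was 30.0% in controls versus 35.6% in mutants, and that of *Igfbp7* was 20.0% and 13.7%. *Igfbp2* and *Igfbp6* stayed below 2% each, at 1.51% and 1.34% in the mutants. Relative to *Igf1*, the summed binding proteins were 35.4-fold more abundant per kilobase in the controls and 19.4-fold in the mutants. Such multiples between genes depend on the length used. For *Igf1* the union of exons was 9904 bases, against 7052 for its longest transcript.

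**Figure D3:**
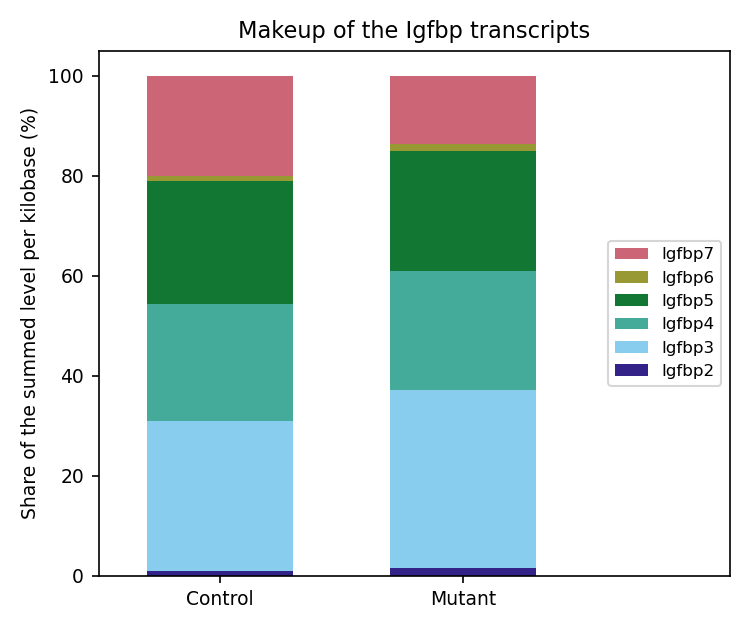
Share of each Igfbp gene in the summed level per kilobase of exon, in percent, from the authors' mean of 3 control (left bar) and 3 mutant (right bar) libraries, without error since the spread is not known. The segment of *Igfbp7* is smaller in the mutants (13.7% against 20.0%) and that of *Igfbp3* larger (35.6% against 30.0%).

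The rest of the pathway was described from 7 lists with 79 genes, of which 73 were in the table. Their median log2 ratio was -0.04, with 33 higher and 40 lower in the mutants, and 5 differed by over 1.5-fold, against 13.2% of all genes. Besides *Ccn1*, these were *Igfals*, *Pappa2*, *Ccn5* and *Insrr*, named after their values were seen, all with means under 10. Upstream of *Igf1*, the growth hormone receptor *Ghr* had means of 196 in mutants versus 222 in controls. The 6 genes of this branch, which conveys growth hormone through JAK2 and STAT5 to *Igf1* transcription in liver and other tissues, had log2 ratios from -0.19 to 0.02 and none past 1.5-fold.

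Among 4 other ligands, receptors and carriers in the table, the median was -0.16. *Igfals*, which encodes the acid-labile subunit, was at 0.999 in mutants versus 0.319 in controls, and *Insrr*, an orphan receptor related to the insulin receptor, at 0.358 and 0.751. *Ins1*, *Ins2* and *Igfbp1* were not analysed here. The 6 IGFBP proteases and protease inhibitors had a median of -0.12. *Pappa2*, whose product cuts IGFBP3 and IGFBP5, was at 9.93 in mutants versus 5.46 in controls, a log2 ratio of 0.86, whereas *Adam12*, with the highest mean over both groups in this list, was at 82.6 and 109. Of 9 proteins with an IGFBP-type domain outside the numbered family, 2 were over 1.5-fold higher, against 7.37% of all genes. *Ccn1*, a matricellular protein, was at 23.1 in mutants versus 13.4 in controls, and *Ccn5* at 1.301 and 0.830. The most abundant of them, *Ccn4*, was at 211 and 238.

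Downstream of the receptors no listed gene passed 1.5-fold, against 13.2% of all genes and 3.06% of those at 10 or more. Most but not all listed genes were at 10 or more, and against the share there a count of 0 sets these lists little apart. The 14 substrates and adaptors had a median of 0.002, with 7 higher and 7 lower. *Irs1*, the main docking protein of both receptors here by signal, had means of 392 in mutants versus 462 in controls. The 22 genes of the PI3K-AKT-mTOR branch had a median of -0.04 and log2 ratios from -0.26 to 0.37, with *Pik3r1*, a regulatory subunit of PI3K, at 433 and 485. AKT is known to keep FOXO factors out of the nucleus, and 12 transcripts that FOXO factors induce had a median of -0.06, with 5 higher and 7 lower. The most abundant of these, *Sesn3*, had means of 540.4 in mutants versus 612 in controls. Transcript levels do not report the phosphorylation state of these proteins.

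**Figure D4:**
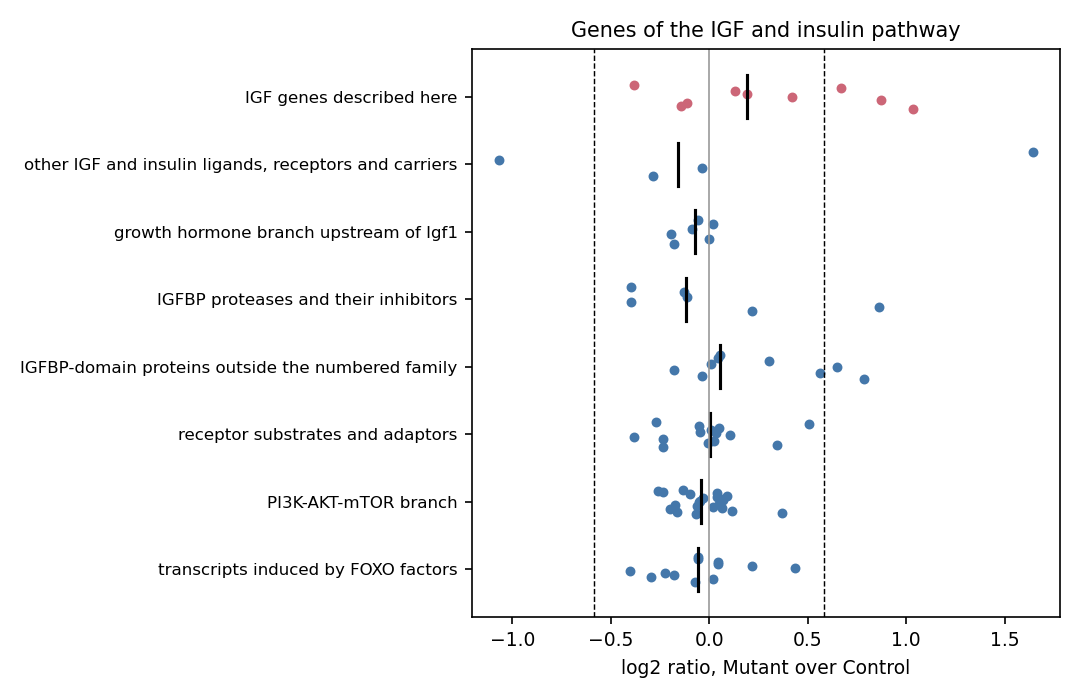
The log2 ratio of mutant over control for each gene (points) of the 9 IGF genes in red and of 7 pathway lists in blue, with black bars at each list's median, a grey line at 0 and dashed lines at 1.5-fold; vertical position within a row has no meaning. The IGF genes spread from -0.38 to 1.04, whereas no gene of the growth hormone, adaptor, PI3K-AKT-mTOR and FOXO lists lies past the dashed lines.

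Markers of other cells were set beside the IGF genes, because IGF transcripts come from several cell types. The dental epithelium markers, of which *Amelx* had the highest mean over both groups at 3946 in mutants versus 362 in controls, had a median log2 ratio of 1.22 and a range from 0.78 to 3.87. *Enam* was at 1983 and 136, *Ambn* at 3360.4 and 617, *Krt17* at 133 and 56.7, and *Krt5* at 359 and 154. Their summed level was 6.49-fold higher in the mutants. The log2 ratios of *Igf1*, *Igfbp2* and *Igfbp6* (1.04, 0.87 and 0.67) lay within or just under this wide range. Those of all other IGF genes, from -0.38 for *Igfbp7* to 0.42 for *Igfbp3*, lay below it. The part of epithelial RNA in the ratios of the IGF genes was not tested.

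Macrophages are a known source of IGF1. The 5 macrophage markers had a median of 0.22, with 4 higher and 1 lower and none past 1.5-fold. *Mrc1*, the most abundant, was at 117 in mutants versus 124 in controls, whereas *Cd68* and *Cx3cr1*, named after their values were seen, had ratios of 1.32 and 1.27. The summed level of the list, to which *Mrc1* contributed most, was 1.09-fold higher. The part of macrophages in the ratio of *Igf1* was not tested. The 8 dental mesenchyme markers had a median of -0.19, with *Col1a1* at 17127 and 21211 and only *Gli1* past 1.5-fold. All 8 were detected in both groups, from *Lhx6* at 11.3 and 13.3 up to *Col1a1*, and *Lhx6* was named after its value was seen. The 4 odontoblast markers were all lower, with a median of -0.30. Of these *Dspp* was at 4136 in mutants versus 5179 in controls, and *Dmp1* at 23.7 and 68.1. The 7 proliferation markers had a median of 0.26, with 6 higher and 1 lower. *Mki67* was at 209 in mutants versus 177 in controls, and *Ccnb1*, the one past 1.5-fold, at 35.6 and 22.9.

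The 4 glial markers had a median of -0.10 with 1 over 1.5-fold higher, against 7.37% of all genes. This was *S100b*, named after its value was seen, at 1.83 in mutants versus 1.18 in controls. The 4 muscle markers had a median of -0.61 with 1 higher and 3 lower by over 1.5-fold, against 13.2% of all genes in either direction. *Acta1*, with the highest mean over both groups in this list, was at only 1.12 in mutants versus 2.50 in controls. Large ratios were more frequent at such low signals, so these counts say little of muscle content. The 5 erythroid markers had a median of -1.53, and their summed level was 22.1 in mutants versus 63.7 in controls. *Hbb-bs* was at 9.97 and 29.0 and *Hba-a2* at 7.49 and 20.4. The part of blood in the IGF values was not tested.

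**Figure D5:**
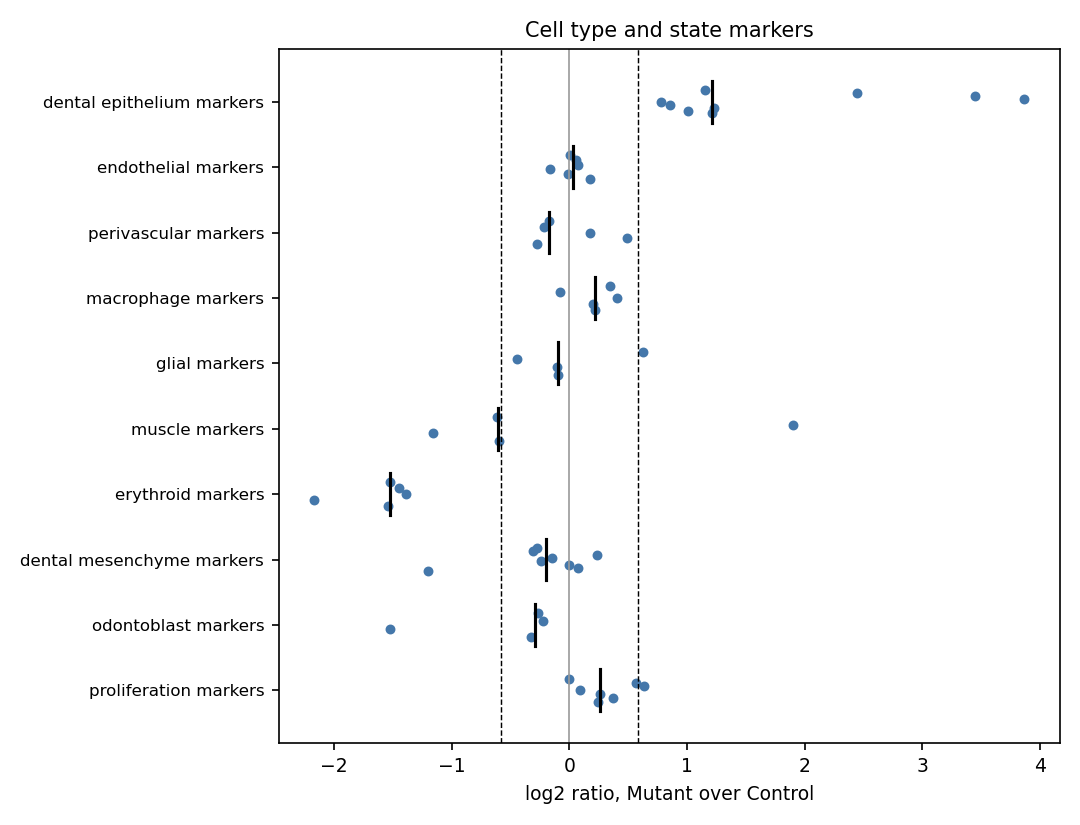
The log2 ratio of mutant over control for each marker gene (points) of 10 cell type and state lists, with black bars at the medians, a grey line at 0 and dashed lines at 1.5-fold; vertical position within a row has no meaning. All epithelium markers lie above 0.78 and all erythroid markers below -1.39, and the macrophage, endothelial and perivascular points lie between the dashed lines.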

How the data were processed

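RNA-seq libraries of 3 control and 3 *Arid1b* mutant samples were used. The authors' software was Partek Flow and their genome build mm10, and the submitters' processing notes name TopHat2 2.0.8. The counting of reads, the annotation and the library scaling are not given in the sources used here. The authors' deposited group means are a normalized signal, and averaged over genes they equal the mean of the library means (53.1 in controls versus 50.9 in mutants). The p-value, FDR, ratio and fold change columns of the authors' comparison and their filtered table were not used.

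Ratios, log2 ratios and ranks were computed here from the group means, without a constant. No test was run, because besides that comparison the table gives each gene only as group means. Levels per kilobase used the union of exons of the GENCODE vM21 annotation (GRCm38, equal to mm10). Coordinates are 1-based. The steps were tested on simulated data, where 200 of 200 planted changes were recovered. This checks the computation only and says nothing of the spread between mice.

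The members and lists were chosen with earlier results of these data known. Named genes were the 9 members, the most abundant gene of each list, up to 5 genes per list past 1.5-fold with a group mean of at least 10, *Arid1b* and the sex-linked transcripts; exceptions are named, and some genes are not reported here. Python 3.11.15, numpy 2.4.6, pandas 2.3.3 and matplotlib 3.10.9 were used.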

Additional observations from a re-analysis of the deposited data

How the results depend on the processing

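Of 111 recomputed values, 86 kept their direction and their side of the 1.5-fold threshold or, for counts and shares, stayed within 1.5 times. These include the count of IGFBP-domain proteins past 1.5-fold, which was 3 on scaling to total against 2. Adding 1 or 5 to both means, centring and scaling to total (a shift of 0.06 on the log2 scale) kept the direction of all 9 IGF genes, and only *Igfbp6* crossed 1.5-fold, at 0.40 with 5 added. The count past the threshold was 3, against 5 with a laxer threshold, which added *Igfbp3* and *Igfbp7*, and 1 at 2-fold. The share of all genes past 1.5-fold was 3.06% at a mean of at least 10 and 1.94% at a mean of at least 100. With a mean of at least 10, the counts past 1.5-fold were 0 for other ligands and receptors, 0 for proteases and 1 for IGFBP-domain proteins, since fewer genes were left, and the median of the substrates and adaptors was -0.025, the reverse of its direction. Scaling to total reversed the medians of the PI3K-AKT-mTOR branch (0.021) and of the FOXO transcripts (0.0037), both near 0. With the longest transcript as length, *Igfbp4* ranked 2 and *Igfbp5* 3 in both groups, and *Insr* 7 and *Igfbp6* 9 in the controls. Not divided by length, the control and mutant shares of the binding proteins were 0.462% and 0.733% for *Igfbp2*, 39.7% and 37.7% for *Igfbp5*, 0.283% and 0.390% for *Igfbp6*, and 6.50% and 4.32% for *Igfbp7*, which follows from the lengths.

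No paired analysis was possible because the table holds group means, and leaving out each library in turn was not run for the same reason. Of the IGF genes, *Igfbp2* and *Igfbp6* had the lowest signals, so depth bears on their ratios more than on the others. The spread between mice is unknown for all genes.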

Other observations

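The IGF2 mRNA-binding proteins share a name with the pathway but bind RNA inside the cell, and they were looked at after the values of the IGF genes were seen. In the authors' means, *Igf2bp2* was at 6.89 in mutants versus 4.24 in controls and *Igf2bp3* at 4.06 and 2.25, log2 ratios of 0.70 and 0.85. *Igf2bp1* was at 0.222 and 0.0765, the latter under the value of 3 reads in every control library (0.103), so no ratio is given. *Igf2os*, the opposite-strand transcript of *Igf2*, was at 3.82 in mutants versus 4.68 in controls, a log2 ratio of -0.29 beside -0.28 for *Igf2*, and reads of the pair cannot be told apart where strand is unknown.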
